A study of Homo sapiens with 6 samples.

Results

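Translation initiation begins when the factor eIF2, carrying GTP, brings the initiator methionyl-tRNA to the small ribosomal subunit together with eIF1, eIF1A, eIF3 and eIF5. The cap-binding complex eIF4F, made of the cap-binding protein eIF4E, the scaffold eIF4G and the helicase eIF4A, loads this assembly onto an mRNA, and eIF5B then joins the large subunit once a start codon has been found. The exchange factor eIF2B recharges eIF2 with GTP, and both this step and the assembly of eIF4F are main points at which cells set the rate of protein synthesis, including in breast cancer cells.

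The genes described here are the 49 of 23228 rows in the count tables whose symbols begin with EIF and a digit, without the Argonaute symbols EIF2C, the eIF2 kinases EIF2AK and the eIF4E-binding proteins EIF4EBP. They were measured by bulk RNA-seq of poly(A) RNA in MDA-MB-231, an established human triple-negative breast cancer (TNBC) cell line. Cells that stably carried a non-targeted control shRNA (control, n = 3) were compared with cells that stably carried an shRNA against PELP1 (PELP1-KD, n = 3), a nuclear coregulator that takes part in ribosome assembly. Both sets were selected with puromycin and grown in RPMI medium with serum. The knockdown rests on 1 shRNA in this line, and a rescue was not analysed here. The labels do not say whether replicates came from separate cultures, so that all p-values measure the spread between these samples, which may be technical. Reads assigned to genes numbered 17304864 in control replicate 1, 23083404 in replicate 2 and 18004958 in replicate 3, and 19186990, 20972223 and 23132102 in the PELP1-KD replicates, so that 3 reads corresponded to between 0.127 and 0.177 CPM, counts per 1000000 reads of a library whose size was corrected for composition by the TMM method.

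Markers of the line were checked first, and the mesenchymal genes VIM and CD44 and the receptor EGFR averaged 2220.0, 1208 and 132 CPM in control cells, whereas ESR1, PGR and the epithelial cadherin CDH1 stayed too low for testing. VIM, CD44 and EGFR were lower in PELP1-KD cells, at 1921, 828 and 110.5 CPM (adjusted p 7.19e-06, 8.62e-13 and 1.07e-05). ERBB2 averaged 113 CPM and EPCAM 9.46 CPM in control cells, and neither was called. Of 5 markers of other cell types, PTPRC (leukocytes) and KRT5 (basal keratin) were at 0 in all 6 libraries, and with PECAM1, ALB and KRT14 they summed to 0.221 ± 0.126 CPM in control and 0.247 ± 0.0555 CPM in PELP1-KD cells (SD, n = 3 each). PELP1 itself was counted at 57.2, 56.0 and 60.2 CPM in control libraries, against 28.6, 29.8 and 30.2 CPM in PELP1-KD libraries. It decreased by 48.8% (log2FC -0.97, SE 0.055, adjusted p 1.48e-11, quasi-likelihood test of edgeR, Benjamini-Hochberg adjusted over all tested genes), with no overlap of the groups. The exact two-sided permutation test of its CPM gave p = 0.1, the smallest value that 3 against 3 allow.

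Of the 49 genes, 44 passed the filter on low counts and 5 did not (EIF1AY, EIF3C, EIF3CL, EIF4A1 and EIF4E1B). In PELP1-KD cells 14 of the 44 were lower and 8 were higher at an adjusted p under 0.05, and 22 were not called. Among all 12796 tested genes 24.2% were lower, 22.7% were higher and 46.9% were called in either direction, against 31.8%, 18.2% and 50.0% of the initiation factors. The groups did not overlap in 29 of the 44 (65.9%), against 55% of all tested genes, nor in any of the 22 called, against 96.1% of all called genes without overlap. The changes were small, with log2FC between -0.69 and 0.26, none beyond 1 and 9 beyond 0.2 in either direction. The median log2FC was -0.020 over the 44 genes and 0.0014 over all tested genes. With library totals alone in place of TMM, which moved the median of all genes to 0.051, the split changed to 11 lower and 15 higher. Without control replicate 2 the counts were 10 lower and 5 higher, and without PELP1-KD replicate 2 they were 13 and 5.

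Summed, the 49 genes held 12308, 11991 and 12001 CPM among control libraries, against 11546, 11471 and 11528 CPM among PELP1-KD libraries. The mean was 12100.2 ± 180.3 CPM in control and 11515 ± 39.1 CPM after PELP1-KD (SD, n = 3 each), with every PELP1-KD library below every control library. These sums are in CPM scaled by TMM, on which all genes together came to 1017320 in control and 982983 in PELP1-KD cells. In a bulk measurement, fewer cells with a transcript and less of it per cell cannot be told apart.

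**Figure D1:**
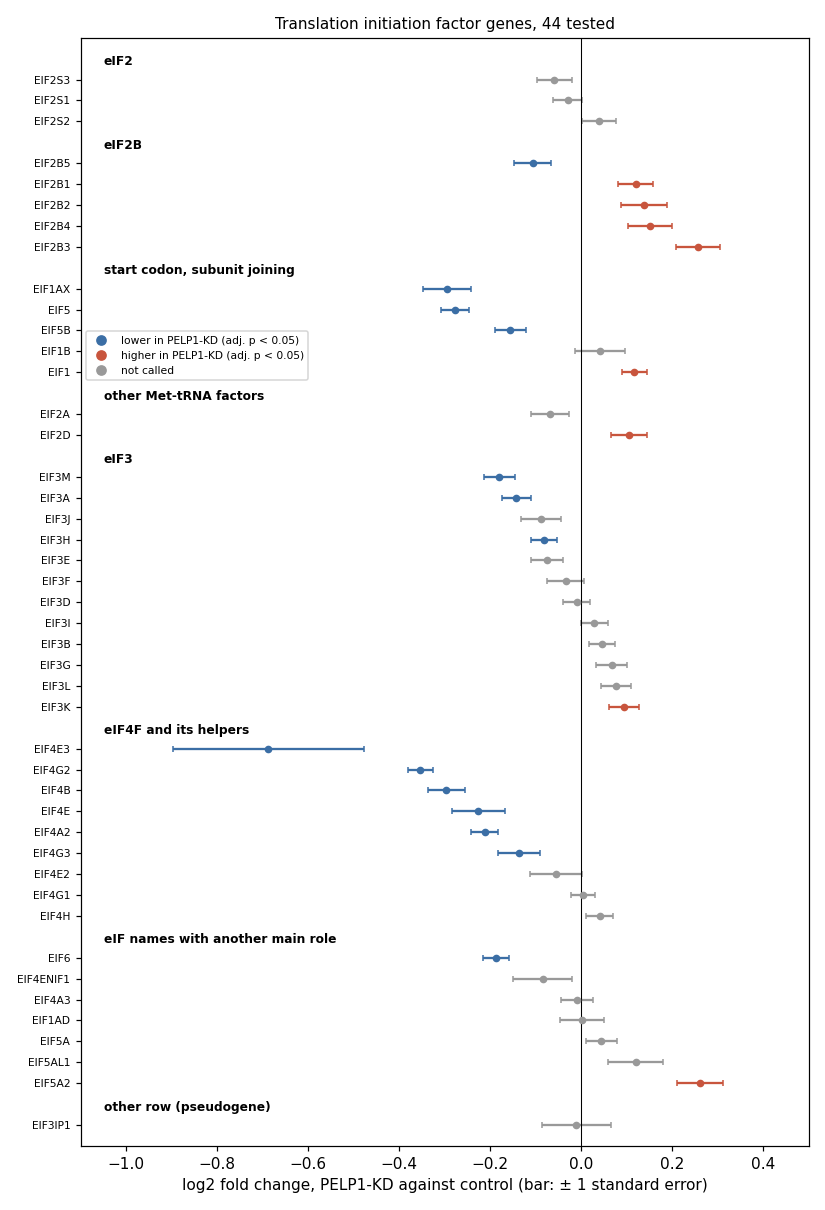
Log2 fold change of each of the 44 tested initiation factor genes in PELP1-KD against control cells (horizontal axis, bars ± 1 standard error, n = 3 per group), grouped by role, with genes at an adjusted p under 0.05 in blue (lower, 14) or red (higher, 8) and the others in grey (22). The eIF4F group holds 6 lower and 0 higher genes, the eIF2B group 1 lower and 4 higher.

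MYC, a transcription factor that drives many genes for ribosome production and translation by binding the E-box CACGTG, was at 203, 210.4 and 210.3 CPM in control and 219, 229 and 216 CPM in PELP1-KD replicates. The difference was small and upward (log2FC 0.091, SE 0.035, adjusted p 0.0376). It was lost in DESeq2 (log2FC 0.091) and without any of control replicates 1, 2 and 3 (0.073, 0.098 and 0.097) or PELP1-KD replicates 1 and 2 (0.10 and 0.067), and with library totals alone the log2FC was 0.14. RefSeq promoters on GRCh38.p14, from 250 bases before to 50 bases after the annotated start, were matched for 41 of the 49 genes and searched for CACGTG, a palindrome that reads alike on both strands. It occurred in 10 of the 41 (24.4%), against 10.1% of the 8933 matched promoters of tested genes and 7.26% of all 35116. By call, it occurred in 2 of 12 promoters of genes lower in PELP1-KD cells, 3 of 8 of those higher and 5 of 17 of those not called, and in none of 4 that were not tested. Over all matched promoters of tested genes the shares by call were 10.9% (lower), 9.57% (higher) and 10.0% (not called). The windows of 30 bases around all matches in called genes are shown 5′ to 3′ on the gene's strand because these are the called genes in which a MYC-type letter match could be read beside a measured change, with the E-box in capitals.
EIF4E, chr4:98929188-98929217, minus strand: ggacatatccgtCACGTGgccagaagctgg
EIF4E, chr4:98929341-98929370, minus strand: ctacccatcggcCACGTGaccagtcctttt
EIF4B, chr12:53006422-53006451, plus strand: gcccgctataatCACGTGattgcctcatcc
EIF2B3, chr1:44986757-44986786, minus strand: gacagagggacaCACGTGtcgaatgctcct
EIF3K, chr19:38619073-38619102, plus strand: cgaggaagaagtCACGTGgcagccggaaag
EIF5A2, chr3:170908782-170908811, minus strand: cagggcgctcttCACGTGactgggcggagc
EIF5A2, chr3:170908807-170908836, minus strand: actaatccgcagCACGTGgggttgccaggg

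All 7 matches lay before the RefSeq start, but those of EIF4E, EIF4B and EIF3K (4 of the 7) lay within the gene's span in GENCODE release 29. The promoters of EIF4E and EIF5A2 each held 2, although EIF4E was lower and EIF5A2 higher in PELP1-KD cells, and EIF4B was lower while EIF2B3 and EIF3K were higher. The EIF4G1 promoter held 2 further matches, and EIF4G1 was not called. Whether any factor bound these sites was not measured.

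The genes for cap recognition and mRNA loading held the most genes called lower. Of the 11 genes of the eIF4F group, 9 were tested. Of these 6 were lower, none was higher and 3 were not called, against 24.2% lower and 22.7% higher among all tested genes. Their median log2FC was -0.21. With library totals alone 5 were lower and 1, EIF4H, was higher (log2FC 0.090). The sum of the 11 genes was 3475 ± 94.5 CPM in control and 3085 ± 2.98 CPM in PELP1-KD cells (SD, n = 3 each, not tested). Most of this difference lay in EIF4G2, which averaged 1377 CPM in control and 1077 CPM in PELP1-KD cells. The sum lacks EIF4A1, which was listed at 0, and so does not describe the eIF4F subunits as a whole. EIF4G2, which encodes the eIF4G-like scaffold DAP5 that lacks the eIF4E-binding region, was measured at 1438, 1349 and 1344 CPM in control and 1097, 1064 and 1071 CPM in PELP1-KD replicates. The groups lay far apart relative to their spread, and EIF4G2 had the lowest adjusted p of the 44 genes (log2FC -0.35, SE 0.028, adjusted p 2.18e-09). In contrast, the canonical scaffold EIF4G1 averaged 1048 CPM in control and 1051 CPM in PELP1-KD cells, and its difference had an approximate 95% interval of -0.047 to 0.056 in log2FC (±1.96 SE, adjusted p 0.902). The third scaffold gene, EIF4G3, was lower at 95.7, 101 and 104 CPM in PELP1-KD replicates against 115, 111 and 105 CPM in control (log2FC -0.14, adjusted p 0.0179), with the nearest libraries of the groups within 1 CPM of each other. Its call was lost without control replicate 2 (log2FC -0.13), without PELP1-KD replicate 1 (log2FC -0.10) and with library totals alone (log2FC -0.087).

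The cap-binding gene EIF4E, whose promoter held 2 of the E-boxes shown, was measured at 47.6, 44.5 and 43.2 CPM in control and 40.4, 36.6 and 38.6 CPM in PELP1-KD replicates. It decreased by 14.5% (log2FC -0.23, SE 0.058, adjusted p 0.00307), with all PELP1-KD libraries below all control libraries. Its relative EIF4E2, which binds caps and takes part in translational repression, averaged 38.3 CPM in control and 36.8 CPM in PELP1-KD cells (log2FC -0.056, 95% interval -0.17 to 0.056, adjusted p 0.441). The third cap-binding relative, EIF4E3, was scarce, with 51, 68 and 35 reads in control and 25, 39 and 43 reads in PELP1-KD replicates. In CPM these were 3.01, 2.99 and 1.97 against 1.28, 1.83 and 1.83, a log2FC of -0.69 with an SE of 0.21 (adjusted p 0.0109). The groups did not overlap, but the call was lost in DESeq2 (log2FC -0.69), without control replicate 2 (-0.58) and without PELP1-KD replicate 1 (-0.55). EIF4E1B, a relative known from the germline, did not pass the filter.

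Among the helicase genes, EIF4A2 was measured at 431, 415 and 419 CPM in control and 363, 357 and 371 CPM in PELP1-KD replicates (log2FC -0.21, SE 0.030, adjusted p 6.93e-06). EIF4B, which stimulates the helicase, stood at 139, 130.3 and 135 CPM against 113, 107 and 109 CPM (log2FC -0.30, SE 0.040, adjusted p 4.62e-06). Neither gene's groups overlapped. The other helicase helper, EIF4H, averaged 297 CPM in control and 306 CPM in PELP1-KD cells (adjusted p 0.276). For EIF4B, 33.6% of the 50-base windows of its principal transcript also occurred in transcripts of genes elsewhere in the genome, and for EIF4H 13.8%. Reads from such windows could have been left uncounted or assigned elsewhere.

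EIF4A1, the most familiar eIF4A gene, was listed at 0 in all 6 libraries, and its mRNA cannot be judged from these tables. In the GENCODE release 29 annotation of GRCh38 EIF4A1 lies at chr17:7572706-7579005 on the plus strand. It overlaps the longer read-through gene SENP3-EIF4A1 (chr17:7563287-7578715) and runs past the end of that gene. Of its principal transcript's 1707 windows of 50 bases, 1417 (83.0%) also occurred in SENP3-EIF4A1 transcripts, and all 1707 lay under some overlapping gene of the same strand. The row SENP3-EIF4A1 held 3, 7 and 5 reads in control and 5, 8 and 6 reads in PELP1-KD replicates. The annotation used for counting is not given in the sources used here, so the part of this overlap in the 0 was not tested. SENP3, a binding partner of PELP1 whose gene lies beside EIF4A1, averaged 32.5 CPM in control and 30.5 CPM in PELP1-KD cells (log2FC -0.094, adjusted p 0.194). Of the SENP3 windows, 57.5% also lay under overlapping genes of the same strand, so its counts have the same limit.

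For eIF2B, the exchange factor with regulatory subunits α, β and δ and catalytic subunits γ and ε, all 5 genes were called, 4 higher and 1 lower. Over all tested genes 46.9% were called. The γ-subunit gene EIF2B3 changed most, from 53.4, 53.1 and 50.8 CPM in control to 63.6, 61.8 and 62.6 CPM in PELP1-KD replicates (log2FC 0.26, SE 0.048, adjusted p 1.82e-04). The catalytic ε-subunit gene EIF2B5 went the other way, from 127, 133 and 127 CPM to 114, 124 and 121 CPM (log2FC -0.11, SE 0.041, adjusted p 0.0372). The groups of EIF2B3 lay wide apart, whereas the nearest values of EIF2B5 lay within 4 CPM of each other. The regulatory genes EIF2B1 (α), EIF2B4 (δ) and EIF2B2 (β) were each higher in all 3 PELP1-KD libraries than in any control library. EIF2B1 was at 112, 114 and 115 CPM in control and 123, 125 and 122 CPM in PELP1-KD replicates (log2FC 0.12, adjusted p 0.0136). EIF2B4 was at 56.9, 60.9 and 58.3 CPM and 65.7, 66.3 and 64.0 CPM (log2FC 0.15, adjusted p 0.0136). EIF2B2, the most variable in control, was at 91.0, 87.1 and 78.6 CPM and 93.6, 97.5 and 91.5 CPM (log2FC 0.14, adjusted p 0.0292).

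As a share of the counts on the 5 subunit genes, EIF2B5 held 28.9%, 29.6% and 29.6% in control libraries, against 24.8%, 26.1% and 26.3% in PELP1-KD libraries (29.4% ± 0.421 against 25.7% ± 0.792, SD, n = 3 each). The shares did not overlap between groups. They combine all 5 of the gene differences above and were not tested on their own. The calls of EIF2B1, EIF2B3 and EIF2B4 held in all 13 alternative settings. That of EIF2B2 was lost without control replicate 2 (log2FC 0.15), control replicate 3 (0.081), PELP1-KD replicate 1 (0.15) or PELP1-KD replicate 2 (0.11), and that of EIF2B5 without control replicate 2 (-0.087), PELP1-KD replicate 1 (-0.072) or PELP1-KD replicate 3 (-0.12), in DESeq2 (-0.11) and with library totals (-0.057).

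The genes of eIF2 itself, the substrate of eIF2B, were not called. EIF2S1, whose product carries the regulatory phosphorylation site, averaged 354 CPM in control and 347 CPM in PELP1-KD cells, EIF2S2 187 and 192 CPM, and the GTP-binding subunit gene EIF2S3 232 and 223 CPM. Their approximate 95% intervals of log2FC were -0.091 to 0.031, -0.034 to 0.11 and -0.13 to 0.016, so that changes of the size seen for EIF2B3 lay outside all 3. Near-identical sequence elsewhere covered 22.6% of the windows of EIF2S2 and 23.2% of those of EIF2S3.

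Start-codon selection and subunit joining gave 3 genes lower, 1 higher and 1 not called of 5 tested. Over all tested genes 24.2% were lower and 22.7% higher. EIF5, which activates GTP hydrolysis by eIF2, was measured at 509.8, 489.6 and 496 CPM in control and 418, 399 and 416 CPM in PELP1-KD replicates (log2FC -0.28, SE 0.030, adjusted p 2.04e-07). EIF1AX, which promotes scanning, was at 121, 107 and 103 CPM and 94.0, 87.3 and 87.4 CPM (log2FC -0.30, SE 0.053, adjusted p 1.08e-04). Both were lower in every PELP1-KD library than in any control library. EIF5B, the joining GTPase, averaged 329 CPM in control and 295 CPM in PELP1-KD cells (log2FC -0.16, adjusted p 7.94e-04). EIF1, which guards the fidelity of start-codon choice, moved in the opposite direction, from 543, 521 and 529 CPM to 575, 576 and 575 CPM (log2FC 0.12, SE 0.028, adjusted p 0.00164). Its PELP1-KD libraries differed from each other by less than 2 CPM. The paralog EIF1B averaged 43.1 CPM in control and 44.3 CPM in PELP1-KD cells (95% interval of log2FC -0.067 to 0.15, adjusted p 0.567). Of 2 further factors that can bring initiator tRNA to the ribosome, EIF2D was at 115, 111 and 118 CPM in control and 123, 125 and 122 CPM in PELP1-KD replicates (log2FC 0.11, adjusted p 0.0341), and EIF2A averaged 158 CPM against 150.2 CPM (adjusted p 0.178). The EIF2D call was lost in DESeq2 (log2FC 0.11) and without control replicate 2 (0.078) or any of PELP1-KD replicates 1, 2 and 3 (0.11, 0.097 and 0.11).

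**Figure D2:**
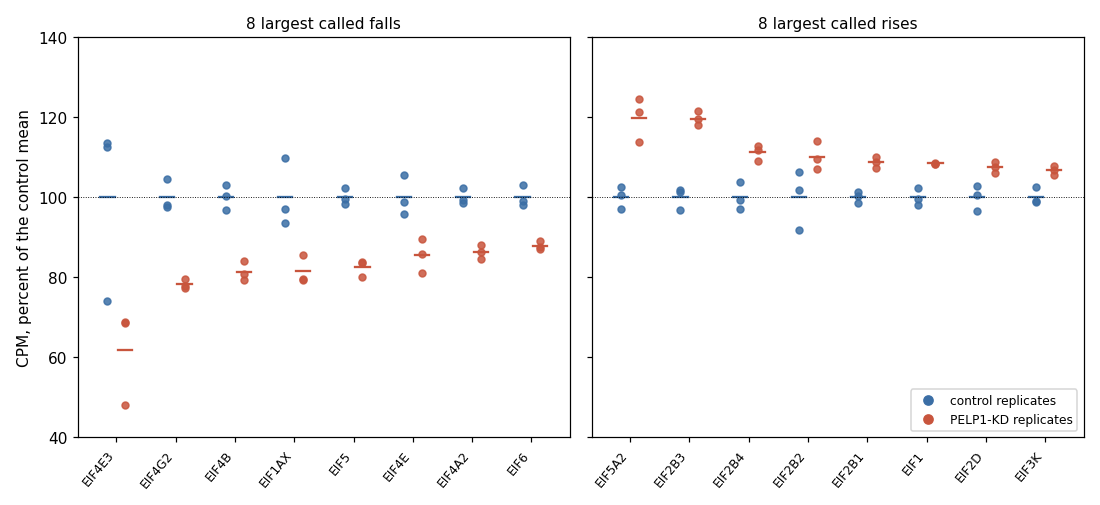
CPM of 16 initiation factor genes in each replicate (control and PELP1-KD, n = 3 each), in percent of the gene's mean over control replicates (vertical axis, control values scatter around 100), with short bars at group means. They are the 8 called genes with the largest falls and the 8 with the largest rises, and no gene's groups overlap.

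The scaffold complex eIF3 had 14 genes in the tables, of which 12 were tested, 3 were lower, 1 was higher and 8 were not called (median log2FC -0.022). Over all tested genes 24.2% were lower and 22.7% higher. EIF3A, the largest subunit and part of the structural core, was lower at 473, 478 and 477 CPM in PELP1-KD replicates against 551, 513 and 511 CPM in control (log2FC -0.14, SE 0.031, adjusted p 8.46e-04). EIF3M, a PCI-domain subunit, was at 297, 280.3 and 296 CPM against 341, 319 and 329 CPM (log2FC -0.18, SE 0.034, adjusted p 1.93e-04). In both genes the groups were separate. EIF3H was lower by less, at 333, 329 and 329.9 CPM against 349, 348 and 352 CPM (log2FC -0.081, adjusted p 0.0262), and EIF3K was higher, at 216, 218 and 213 CPM against 207, 199.7 and 200.1 CPM (log2FC 0.094, adjusted p 0.0260). The calls of EIF3H and EIF3K were each lost without control replicate 2 or 3 or any of the 3 PELP1-KD replicates (log2FC from -0.086 to -0.076 for EIF3H and from 0.082 to 0.11 for EIF3K over the 6 libraries left out in turn). With library totals alone EIF3A was at -0.092 and EIF3K at 0.14, both still called, and 2 eIF3 genes were lower and 5 higher, since the EIF3H call was lost (-0.032) and EIF3B (0.095), EIF3G (0.12), EIF3I (0.079) and EIF3L (0.13) were called higher.

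The 8 eIF3 genes that were not called were EIF3B, EIF3D, EIF3E, EIF3F, EIF3G, EIF3I, EIF3J and EIF3L, with log2FC between -0.088 (EIF3J) and 0.076 (EIF3L). EIF3L, with an adjusted p of 0.0592, and EIF3E, with 0.0916, were the nearest to the threshold. EIF3D, which can itself bind caps, averaged 440.0 CPM in control and 437 CPM in PELP1-KD cells (95% interval of log2FC -0.067 to 0.048, adjusted p 0.804). EIF3C, another core subunit gene, held 0, 1 and 0 reads in control and 2, 0 and 0 reads in PELP1-KD replicates, and EIF3CL held 0 in all. These 2 genes are near-identical copies on chromosome 16, at chr16:28688558-28735730 (EIF3C) and chr16:28379579-28403879 (EIF3CL) in GRCh38, and 2998 of the 3096 windows of EIF3C (96.8%) also occurred in EIF3CL transcripts. They are reported as not measurable here.

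Of 7 genes that carry an eIF name but whose best-known role lies elsewhere, 1 was higher and 1 was lower. Among all tested genes these shares were 22.7% and 24.2%. With library totals alone 3 of the 7 were higher and 1 lower, with EIF5A (log2FC 0.094) and EIF5AL1 (0.17) added. EIF5A2, a paralog of the hypusine-carrying elongation and termination factor eIF5A that is amplified in some cancers, was at 57.1, 54.1 and 56.1 CPM in control and 69.3, 63.4 and 67.6 CPM in PELP1-KD replicates (log2FC 0.26, SE 0.050, adjusted p 2.31e-04). EIF5A stood at 674, 709.9 and 737 CPM and 714, 763 and 710.5 CPM, groups that overlapped (log2FC 0.044, 95% interval -0.022 to 0.11, adjusted p 0.293). EIF6, which keeps the ribosomal subunits apart and acts in large-subunit maturation, was lower at 448, 455 and 444 CPM against 501, 527 and 505 CPM (log2FC -0.19, SE 0.029, adjusted p 2.49e-05). Neither the exon-junction helicase gene EIF4A3 (adjusted p 0.846), the eIF4E transporter gene EIF4ENIF1 (0.296), EIF1AD (0.979) nor EIF5AL1 (0.113) was called. EIF5A and EIF5AL1 share sequence with each other or other copies (31.7% and 17.7% of windows), and the pseudogene EIF3IP1, which the naming rule also took in, was not called (0.922).

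Of the 22 calls, 15 (10 lower and 5 higher) held in all 13 alternative settings, and 7 (EIF2B2, EIF2B5, EIF2D, EIF3H, EIF3K, EIF4E3 and EIF4G3) were lost in at least 1. No called gene changed direction in any of the 13. Leaving out control replicate 2 or PELP1-KD replicate 1 each cost 7 of the 22 calls, PELP1-KD replicates 2 and 3 cost 4 each, control replicate 3 cost 3 and control replicate 1 none.

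Transcript levels, compared per length as RPKM (reads per 1000 bases and per 1000000 reads) with the median length of each gene's coding transcripts in GENCODE release 29, ran over several orders of magnitude. The highest means over the 6 libraries were those of EIF5A (551 RPKM), EIF6 (383) and EIF1 (354), followed by EIF3E (353) and EIF4G2 (351). The lowest of the tested genes were EIF5AL1 (9.04), EIF4ENIF1 (7.18) and EIF4E3 (0.354). Of the 43 pairs of neighbours in this order, 28 had ranges over the 6 libraries that overlapped, among them EIF6 and EIF1, EIF1 and EIF3E, and EIF3E and EIF4G2. EIF6 lay above EIF1 in all control libraries and below it in all PELP1-KD libraries, but with the principal transcript's length it lay above EIF1 in all 6. The order depends on the length used: with the principal transcript in place of the median, EIF4G2 came highest at 623 RPKM. Its principal transcript was 1969 bases long, against a median of 3500, and whether it covers the full mRNA was not tested. EIF1 then took rank 7 of the 44, while EIF5A2 moved from rank 17 to rank 40.

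**Figure D3:**
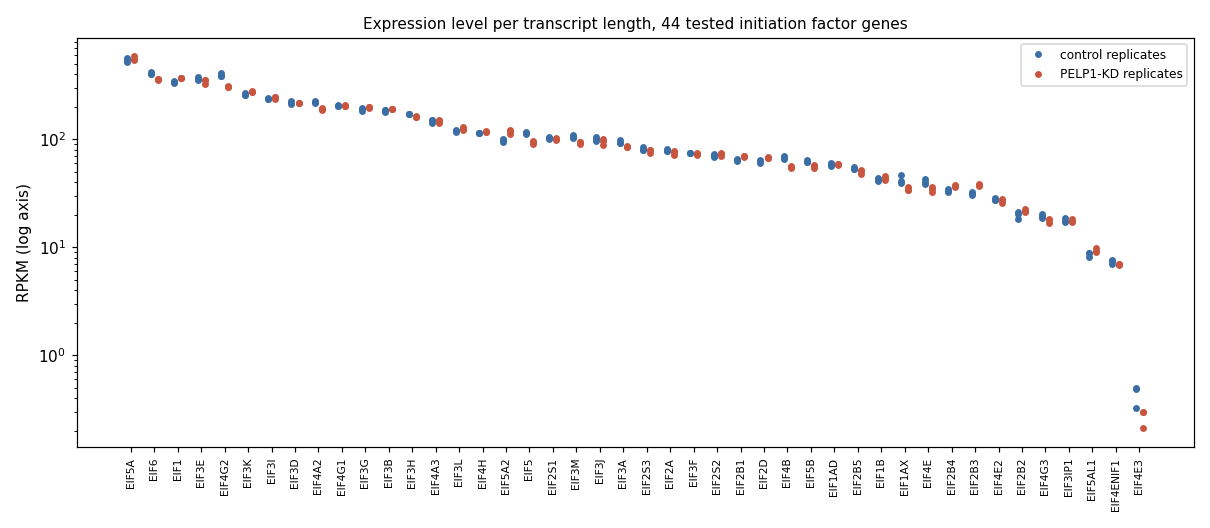
RPKM of each of the 44 tested initiation factor genes on a log axis, ordered by the mean over 6 libraries, with a point for each control and each PELP1-KD replicate (n = 3 each) and length taken as the median coding transcript. EIF5A, EIF6 and EIF1 lie at the top and EIF4E3 at the bottom, and for most genes the groups differ by little against the range between genes.

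Shares between paralogs were compared for 4 pairs on the RPKM scale, and the EIF4A2 share was left out because EIF4A1 was listed at 0. EIF4E2 made up 40.4%, 40.5% and 41.6% of the sum of EIF4E and EIF4E2 in control replicates and 43.5%, 45.0% and 42.6% in PELP1-KD replicates (40.8% ± 0.693 against 43.7% ± 1.22, SD, n = 3 each). EIF4G3 made up 8.71% ± 0.265 of EIF4G1 plus EIF4G3 in control and 7.96% ± 0.262 in PELP1-KD cells. These 2 shares did not overlap between groups, and for both the exact two-sided permutation test gave p = 0.1, the smallest it can give with 3 against 3. EIF5A2 made up 15.3% ± 0.812 of EIF5A plus EIF5A2 in control and 17.3% ± 1.19 in PELP1-KD cells, and EIF1B 11.2% ± 0.302 and 10.7% ± 0.404 of EIF1 plus EIF1B, each with exact permutation p = 0.2. Adjusted over the 4 shares, p was 0.2 for each, and no share could pass the threshold in this design. The size of the shares depends on the transcript lengths used. With principal transcripts the EIF4E2 share was 85.9% in control and 87.3% in PELP1-KD cells and the EIF5A2 share 2.09% and 2.42%, and all 4 shares kept their direction.

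Genes called lower had transcripts poorer in GC. Over the principal transcripts, the median GC content was 41.1% for the 14 genes lower, 47.0% for the 8 higher and 48.7% for the 22 not called, beside 43.7%, 54.5% and 49.3% in the same classes of the 11311 tested genes with a matched transcript. These 11311 genes were split by GC into 4 bins of nearly equal size, and in the lowest (under 42.4%) lay 14 of the initiation factors, of which 8 were lower and 1, EIF5A2, was higher. Of all genes in that bin, 43.3% were lower and 10.7% higher. In the second bin 3 of 13 initiation factors were lower and 4 higher, against 28.6% and 17.0% of all genes. The third held 2 lower and 3 higher of 13, against 18.4% and 28.3%. In the highest, 1 of 4 was lower and 0 were higher, against 10.9% and 36.4%. Across the 44 genes the log2FC had Pearson's r = 0.34 and Spearman's rho = 0.39 with GC, against 0.24 and 0.34 across the 11311 genes, a description over genes that share the same 6 libraries. Lower genes also had longer principal transcripts, with a median of 4739 bases against 2168 for higher genes, and among the 11311 genes 3946 against 2777. EIF4G2 entered with its principal transcript of 1969 bases, against a median length of 3500. The part of GC content and length in the calls was not tested.

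**Figure D4:**
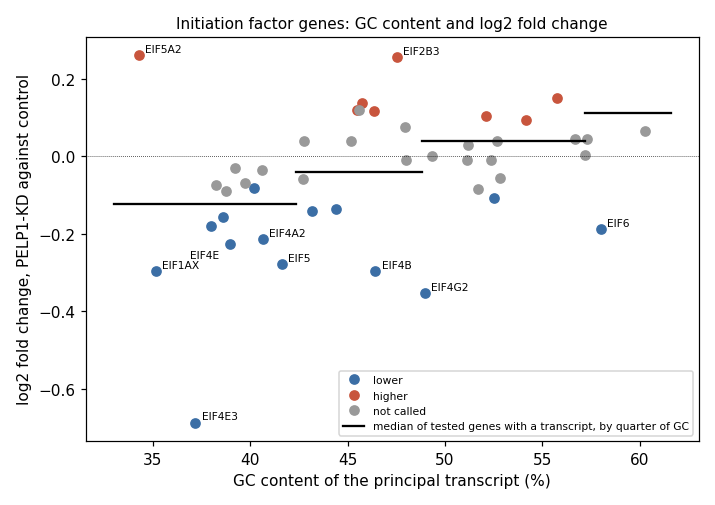
Log2 fold change in PELP1-KD against control cells (vertical axis) against GC content of the principal transcript in percent (horizontal axis), for the 44 tested initiation factors, coloured by call and some of them named, with black bars at the median log2FC of the 11311 tested genes with a matched transcript in each of 4 GC bins. The black bars rise from -0.12 in the lowest bin to 0.11 in the highest, and 8 of the 14 initiation factors in the lowest bin were called lower.

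Genes that act on these factors are given for context, with the log2FC and then the adjusted p in parentheses. For every list below, the shares over all tested genes were 24.2% lower, 22.7% higher and 46.9% called. Among 9 genes of eIF2 kinases, their helpers and phosphatase subunits, 2 were lower and 3 higher (median log2FC -0.027). DNAJC3, an inhibitor of eIF2 kinases, fell from 68.5 CPM to 53.5 CPM (log2FC -0.36, adjusted p 4.44e-06), and the kinase gene EIF2AK4 (GCN2) fell from 138 to 126 CPM (-0.12, 0.0137). IMPACT, an inhibitor of GCN2 activation, rose from 20.9 to 25.3 CPM (0.28, 0.00211), and the eIF2 phosphatase subunit genes PPP1R15B and PPP1R15A rose with log2FC of 0.12 and 0.11 (adjusted p 0.0196 and 0.00595).

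Of 16 cap-complex regulators, 15 were tested, 6 were lower and 2 higher (median log2FC -0.062). PDCD4, which sequesters eIF4A, was at 29.4, 29.2 and 26.5 CPM in control and 18.0, 16.8 and 17.3 CPM in PELP1-KD replicates and fell by 38.8% (log2FC -0.71, SE 0.070, adjusted p 5.63e-08) with wide separation of the groups. PABPC1, the main cytoplasmic poly(A)-binding protein, which contacts eIF4G, fell from 1276 to 1025 CPM (log2FC -0.32, adjusted p 1.12e-08, 11.8% of windows elsewhere). GIGYF2, a partner of EIF4E2 in repression, fell from 47.7 to 38.9 CPM (-0.29, 1.21e-04). The 2 genes that rose were RPS6KB2, an S6 kinase (0.32, 1.23e-05), and EIF4EBP1, the inhibitor of eIF4E (0.19, 0.00284).

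Initiation helpers and the enzymes that modify eIF5A or trim initiator methionine gave 2 lower and 3 higher of 9 (median log2FC -0.041). DENR, which recycles and reinitiates ribosomes with MCTS1, fell from 220.4 to 165 CPM (log2FC -0.41, SE 0.038, adjusted p 1.75e-08), and the helicase gene DDX3X fell too (-0.13, 0.00139). Both enzymes of the hypusine pathway were higher, DHPS (0.20, 5.80e-04) and DOHH (0.31, 0.00403), as was the methionine aminopeptidase gene METAP1 (0.24, 9.12e-05). For DHPS, 80.8% of windows lay under overlapping genes of the same strand. The DOHH call was lost in DESeq2 (log2FC 0.32), and without control replicate 1, at 31.7 CPM beside 44.3 and 42.9 CPM in the other control libraries, its log2FC was 0.18. Cytosolic elongation and termination genes gave 4 lower and 1 higher of 12 (median -0.073), led by EEF1A2, which rose from 76.8 to 101 CPM (0.40, 2.92e-07). The release factor gene ETF1 (-0.16, 8.70e-04), EEF1G (-0.15, 2.76e-04) and EEF1D (-0.13, 0.00300) fell. For EEF1G, 64.2% of windows occurred elsewhere and 96.7% lay under overlapping genes of the same strand. Mitochondrial translation factors gave 3 lower and 2 higher of 9 (median 0.00099), with falls of MTRF1L, MRRF and MTIF3 (log2FC -0.35, -0.19 and -0.17) and rises of MTRF1 and GFM2 (log2FC 0.29 and 0.22). MTRF1L held only 164 to 260 reads per library, and 34.6% of its windows occurred elsewhere. The MTIF3 and MTRF1 calls were lost in DESeq2 (log2FC -0.17 and 0.29), that of MTRF1 also when each library had to hold 10 or more counts (0.29), and those of EIF2AK4, EEF1D and MTIF3 with library totals alone (-0.074, -0.079 and -0.12), while DDX3X (-0.084) and EEF1G (-0.098) moved but stayed called. Single libraries left out ended the calls (log2FC then) of EIF2AK4 (without control replicate 2, -0.095, or PELP1-KD replicate 2, -0.11), PPP1R15B (control replicate 3, 0.084, PELP1-KD replicate 1, 0.11, or 3, 0.12), MTIF3 (control replicate 2, -0.13, PELP1-KD replicate 1, -0.16, or 2, -0.15) and MTRF1 (control replicate 1, 0.19, PELP1-KD replicate 2, 0.33, or 3, 0.20).

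**Figure D5:**
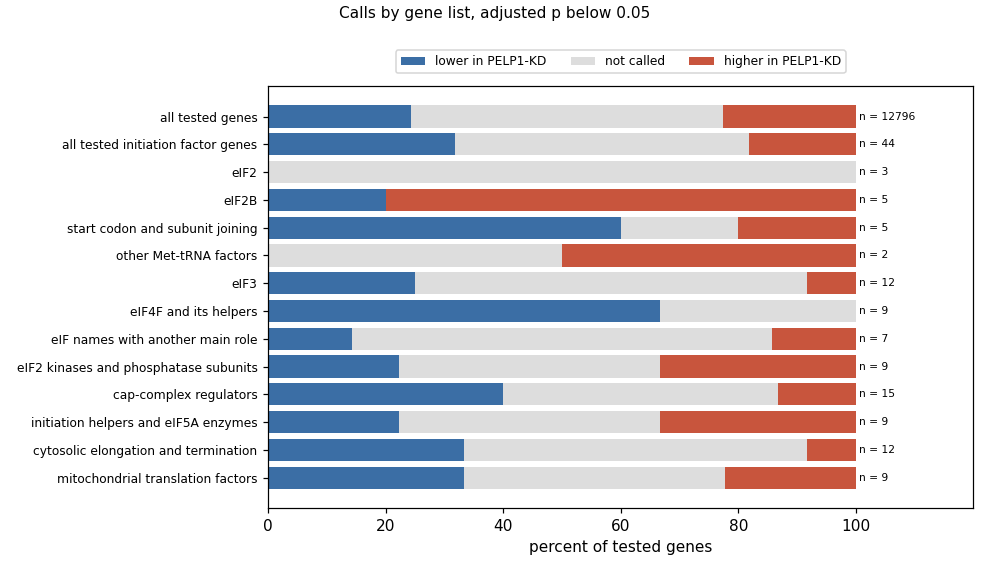
Share of genes called lower in PELP1-KD cells (blue, from the left), not called (grey) and higher (red, to the right), in percent of the tested genes of each group of initiation factors, each list of related genes and all tested genes (horizontal axis), with the number tested beside each bar. Of all tested genes 24.2% are blue and 22.7% red, and in the eIF4F group 66.7% are blue and none red.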

How the data were processed

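RNA was isolated from MDA-MB-231 cells with a non-targeted control shRNA or a PELP1 shRNA (n = 3 each), and stranded poly(A) libraries were sequenced as single reads of 50 bases. The authors deposited raw read counts per gene, 1 table per library. Per the submitters' processing notes bcl2fastq, TopHat2, SAMtools and HTSeq were used with the hg19 build; versions, annotation and settings are not given in the sources used here. The closing summary lines of each table, which name no gene and hold reads counted on no gene (41.0% to 41.4% of the reads listed, of which alignments that were not unique made 32.5% to 32.9% of the total), were left out of library sizes and tests. Genes with near-identical copies or overlapping neighbours may therefore be underestimated, which was not tested.

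Counts were tested with edgeR 4.0.16 in R 4.3.3 (quasi-likelihood F test, TMM, filterByExpr with a minimum count of 10), Benjamini-Hochberg adjusted over 12796 tested of 23228 listed genes and called at an adjusted p under 0.05. The biological coefficient of variation was 3.52%. SE and approximate 95% intervals (±1.96 SE, a normal multiplier) refer to the fitted log2FC, PELP1-KD minus control. These intervals are somewhat narrower than the test would give. That of EIF3G, 7.9e-05 to 0.13, left out 0 at an unadjusted p of 0.0637 in the quasi-likelihood F test. Replicates of a group differed by more than sampling noise (chi-square per degree of freedom 1.47 to 4.11). The script was tested on simulated data. Lengths, GC content and the search for 50-base windows shared between genes used GENCODE release 29 on GRCh38, in which all 49 genes were matched by symbol or older symbol, and promoters came from RefSeq; coordinates come from these and not from the count tables. RPKM used the median length of coding transcripts. Lists are described by counts and medians, with no set test. Members and lists were chosen with earlier results of these data known. Named genes were PELP1, MYC, every member by its call, with replicate values for the 8 largest called falls and rises, paralog pairs and extremes of level, and in each other list the 3 largest called falls and rises; replicate values of other members were added after their values were seen. Alternatives were DESeq2 1.42.0, limma-voom (limma 3.58.1), RLE size factors, library totals alone, 2 other filters, the replicate number as a block, each replicate left out, counts in place of RPKM for paralog shares and, chosen after seeing the data, the principal transcript's length for levels and paralog shares and members with under 1% of windows in genes elsewhere.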

Additional observations from a re-analysis of the deposited data

How the results depend on the processing

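Scaling moved the balance of the calls most. With library totals alone the count of initiation factors higher in PELP1-KD cells rose from 8 to 15 and the median log2FC of all 44 from -0.020 to 0.029, and 5 genes that were not called changed sign: EIF2S1 (0.020), EIF3D (0.040), EIF3F (0.015), EIF4A3 (0.040) and EIF3IP1 (0.039). TMM factors were 0.978 to 0.987 in control and 1.02 in each PELP1-KD library. With at least 10 counts in every replicate EIF1AD, not called, stood at -0.00076. Among the 27 tested genes with under 1% of windows in genes elsewhere, 9 were lower and 6 higher, a smaller list by construction.

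With each replicate left out in turn, members higher ranged from 5 to 9, members lower from 10 to 14 and the median log2FC of the members tested from -0.0315 to -0.0171. EIF4G1, EIF3D, EIF4A3, EIF1AD and EIF3IP1, all not called, crossed 0 there, with log2FC of -0.0082 to 0.022, -0.033 to 0.0062, -0.036 to 0.015, -0.019 to 0.019 and -0.040 to 0.024. RLE size factors and limma-voom gave 14 lower and 8 higher, DESeq2 12 and 7. Over all genes the counts were within 1.5 times of 3103 lower and 2904 higher in every alternative run, and PELP1 and the directions of the 4 paralog shares held. The cause of the losses without single libraries was not tested.

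Replicate numbers are shared by the groups, but same-numbered samples did not deviate together (correlations 0.039, 0.065 and -0.078), and only the samples numbered 2 correlated best with their own number. With the replicate number as a block, 16 members were lower and 9 higher, with EIF3E, EIF3J and EIF3L added to the calls and none lost. Low counts limit EIF4E3, and genes listed at or near 0 (EIF4A1, EIF3C, EIF3CL) allow no statement.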
